A study of Mus musculus with 6 samples.

Results

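The genes described here encode 7 enzymes of heme synthesis (Alas1, Alad, Uros, Urod, Cpox, Ppox and Fech) and 2 transporters that serve the pathway (Slc25a38 and Abcb6). They were chosen by gene symbol, and all 9 had a row among the 18518 gene symbols of the expression table. RNA sequencing had been carried out on E14Tg2A, an established line of mouse embryonic stem cells, with 3 libraries of the wild-type genotype (WT) and 3 of the genotype BACH1-KO. Both genotypes had been kept for 2 days in serum medium with 200 units of murine LIF, the self-renewal cytokine, per ml, and with non-essential amino acids and β-mercaptoethanol as supplements. BACH1-KO cells had been made with CRISPR/Cas9, by transfecting guides cloned in LentiCRISPR V2, selecting with puromycin and sorting single-cell clones. The labels do not say whether the 3 BACH1-KO libraries are from 1 clone, nor whether the WT cells went through transfection and selection. The libraries of a group are not stated to be separate cultures, so the p-values measure the spread between libraries, which may be technical.

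Heme is iron bound in a porphyrin ring. Its synthesis begins in mitochondria, where ALAS joins glycine and succinyl-CoA to 5-aminolevulinic acid, continues in the cytosol through ALAD, UROS and UROD, and returns to mitochondria for CPOX, PPOX and FECH, the enzyme that inserts the iron. ALAS1, the form used outside red blood cells, is rate limiting there, and heme restrains its production. BACH1 is a repressor that releases DNA when it binds heme, so it is one of the proteins through which cells sense heme. Embryonic stem cells make heme for respiratory cytochromes and other housekeeping hemoproteins, not for hemoglobin.

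Expression is given as FPKM, the fragments of a transcript divided by its length in kilobases and by the library's mapped fragments, and so a length-scaled share of the library. Absolute depth is unknown, so no interval for counting error is given. The number of symbols with nonzero FPKM split by genotype, at 16047 to 16159 for WT and 17276 to 17455 for BACH1-KO. Summed FPKM split too, at 785800 to 805118 for WT and 762745 to 766086 for BACH1-KO. Whether depth or composition lies behind these splits was not tested, and they bear most on genes of low level. All 12187 genes whose average across libraries reached 1 FPKM were tested with limma on log2(FPKM + 1). An adjusted p under 0.05 (Benjamini-Hochberg over these genes) is past the threshold. Fold changes are BACH1-KO minus WT on that log2 scale, which understates the change of low genes. Bach1 transcript itself was called higher in BACH1-KO, at 8.28 ± 0.266 FPKM in WT and 10.4 ± 0.0719 FPKM in BACH1-KO (SD, n = 3 per group; log2 fold change 0.30, limma adjusted p = 5.15e-04). That rise does not check the genotype label, since a transcript level does not show whether the coding sequence was edited. All 8 markers of embryonic stem cells had transcript in every library, the lowest value being 62.7 FPKM for Esrrb, and 7 fell in BACH1-KO and 1, Nanog, rose. Their sum was between 10477 and 11250 FPKM in WT and between 6733 and 6988 FPKM in BACH1-KO. Pou5f1 was between 1310 and 1431 FPKM in WT and between 1103 and 1124 FPKM in BACH1-KO, and Tdgf1 was between 1059 and 1203 FPKM and between 235 and 248 FPKM.

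Markers of hepatocytes, cells with an active heme pathway, moved with the genotype. All 25 of a list of 25 were higher in BACH1-KO, where their levels summed to between 1141 and 1181 FPKM, against 12.4 to 19.4 FPKM for WT. Alb was between 0.0738 and 1.39 FPKM in WT and between 461 and 471 FPKM in BACH1-KO, and Apoh and Cyp3a11 were listed at 0 in each WT library. The 15 erythroid markers with a row summed to between 4.84 and 6.24 FPKM in WT and between 14.1 and 16.8 FPKM in BACH1-KO. Of the 4 that were tested, the globin genes Hba-a1 and Hbb-b1 rose, and Gata1 and Sptb fell. Hba-a1 went from a mean of 0.610 to 6.94 FPKM and Hbb-b1 from 0.128 to 3.59 FPKM. The defining erythroid factors were low. Gata1 was between 1.25 and 1.97 FPKM in WT and between 0.207 and 0.722 FPKM in BACH1-KO. Klf1 stayed under 0.63 FPKM in all 6 libraries. The part of hepatocyte or erythroid transcripts in the values of the heme genes was not tested. In bulk RNA a change in the number of cells of a type and a change in RNA per cell cannot be told apart.

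The heme genes did not move as a block. Uros rose more than 4-fold, Abcb6 and Ppox rose by less than 1.5-fold, Alas1, Urod and Cpox fell by less than that, and Alad, Fech and Slc25a38 did not pass the threshold. That is 6 of 9 past the threshold, 3 in each direction, against 77.0% of all tested genes past it (37.3% higher and 39.7% lower). The libraries of the 2 genotypes did not overlap for these 6 genes, and 79.3% of all tested genes had no overlap either, so the share of members called is near the background. The median log2 fold change of the 9 was 0.018, beside -0.012 over all tested genes. Tested against a fold change of 1.5 instead of any change, Uros passed (limma treat, adjusted p = 8.00e-06) and the other 5 genes did not. The plot of levels by library shows each value behind these counts.

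**Figure D1:**
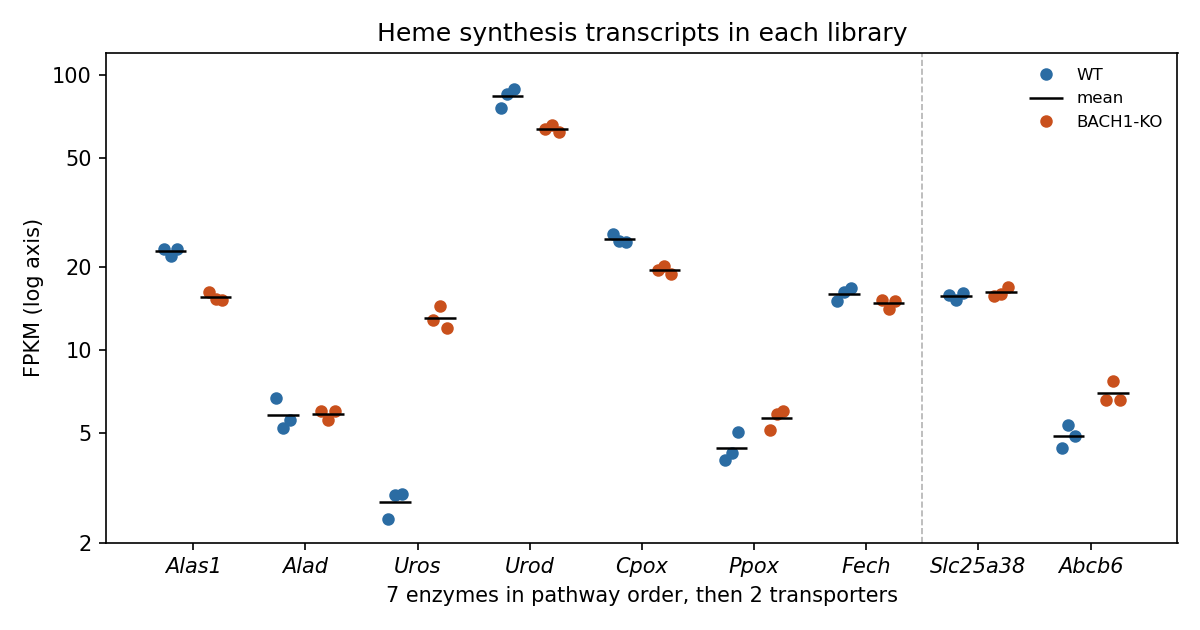
FPKM (log axis) of the 7 enzymes in pathway order and the 2 transporters, with 1 point per library (3 WT in blue, 3 BACH1-KO in orange) and a black line at each mean. Urod is highest in every library, and Uros moves from the lowest place in WT (2.43 to 3.01 FPKM) to 12.1 to 14.4 FPKM in BACH1-KO.

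Alas1 encodes the enzyme of the first step and lies on chromosome 9 (mm10, 106233455 to 106248654, minus strand). The WT libraries had 23.3, 21.9 and 23.2 FPKM, and the BACH1-KO libraries 16.2, 15.4 and 15.2 FPKM. Every BACH1-KO library lay below every WT library. Alas1 fell by 31.6%, a log2 fold change of -0.52 (SE 0.05, limma adjusted p = 1.56e-05), and 16.8% of tested genes had a change that low or lower. The annotated antisense gene 4930500F10Rik overlaps Alas1 by 695 bases and is not analysed here. The strand setting is not given, so fragments from that stretch may be counted for Alas1. Alas2, the erythroid form of the enzyme, was between 0.0788 and 0.180 FPKM in WT and between 0.303 and 0.629 FPKM in BACH1-KO, too low to be tested. Alas1 was higher than Alas2 in all 6 libraries.

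Slc25a38 encodes the mitochondrial carrier that brings in glycine for the first step. It was at 15.8, 15.2 and 16.2 FPKM in WT and 15.7, 16.0 and 17.0 FPKM in BACH1-KO, with overlapping groups. The log2 fold change was 0.042 (95% interval -0.069 to 0.15, limma adjusted p = 0.445). Within a library, where scaling cancels, the level of Slc25a38 relative to Alas1 was 0.679, 0.693 and 0.696 in WT and 0.968, 1.04 and 1.12 in BACH1-KO. The carrier transcript thus stood below Alas1 in each WT library and near it in BACH1-KO.

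Abcb6 encodes an ABC transporter of porphyrins found in mitochondrial and other membranes, and lies on chromosome 1 (75171717 to 75180392, minus strand). Its level was 4.43, 5.35 and 4.87 FPKM in WT and 6.61, 7.74 and 6.59 FPKM in BACH1-KO. The groups did not overlap. It rose 1.43-fold, with a log2 fold change of 0.44 (SE 0.08, limma adjusted p = 0.00151). Another annotated transcript on that strand, Gm29253, overlaps 8662 bases of the gene and is not analysed here, so reads shared between them cannot be told apart.

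Alad encodes the second enzyme, which joins 2 aminolevulinic acid molecules to porphobilinogen (chromosome 4, 62509169 to 62519918, minus strand). It was at 6.68, 5.21 and 5.57 FPKM in WT and 6.03, 5.59 and 6.03 FPKM in BACH1-KO. The BACH1-KO values lay inside the range of the WT values. Its log2 fold change was 0.018 (95% interval -0.18 to 0.22, limma adjusted p = 0.856).

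Uros showed the largest change of the 9 genes. It encodes uroporphyrinogen III synthase, which closes the ring with 1 pyrrole inverted and so sets the isomer used for heme (chromosome 7, 133686243 to 133710072, minus strand). The WT libraries had 2.43, 2.97 and 3.01 FPKM, and the BACH1-KO libraries 12.9, 14.4 and 12.1 FPKM. The lowest BACH1-KO library was 4.00 times the highest WT library, and the highest was 5.93 times the lowest. The ratio of means was 4.68, and on the log2(FPKM + 1) scale the change was 1.89 (SE 0.09, limma adjusted p = 4.64e-07), above that of 98.3% of tested genes. Of all tested genes 11.3% had a BACH1-KO mean of at least 2 times the WT mean. Uros was the member that did.

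Uros overlaps Bccip, a gene for a BRCA2-binding protein, by 740 bases on the opposite strand at its start. Bccip was at 191 ± 0.583 FPKM in WT and fell to 147 ± 2.89 FPKM in BACH1-KO (log2 fold change -0.38, limma adjusted p = 5.41e-06). The strand setting of the quantification is not given in the sources used here, so fragments from the shared stretch may be counted for either gene. Bccip was far higher than Uros in both genotypes and moved in the opposite direction.

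**Figure D2:**
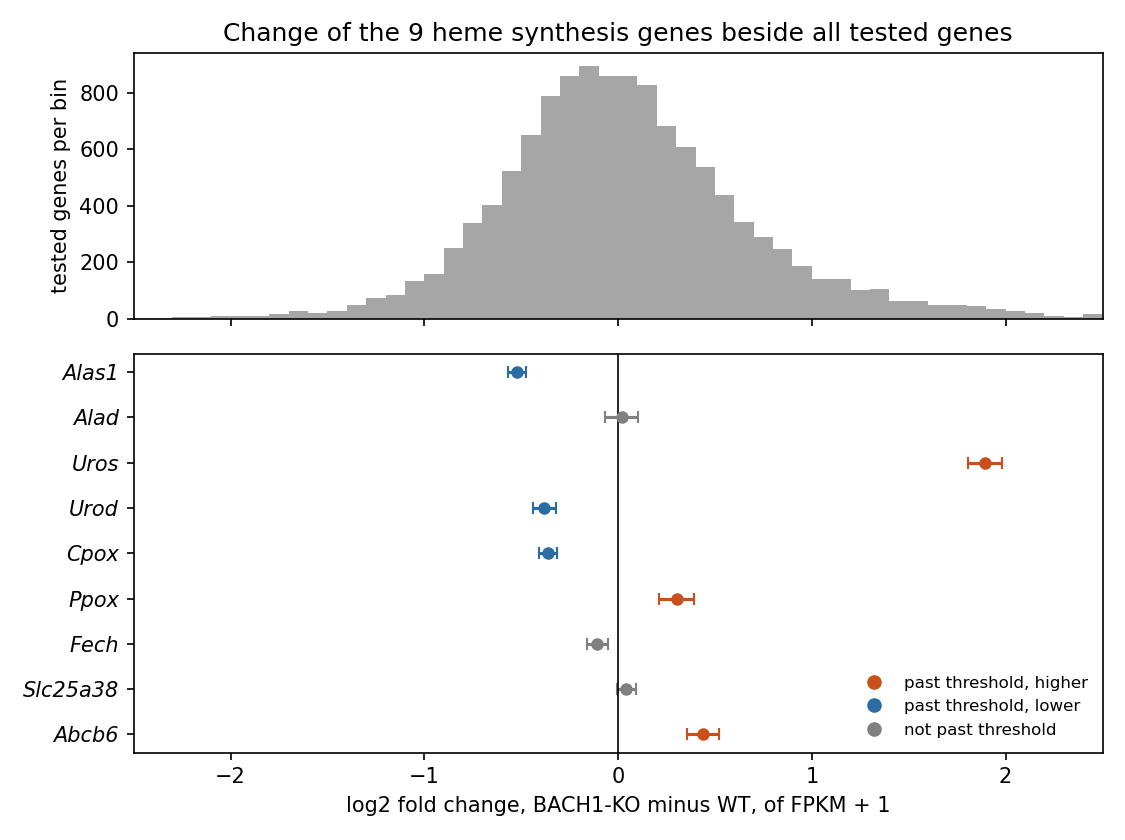
Top, number of tested genes per bin of 0.1 along the log2 fold change (BACH1-KO minus WT, FPKM + 1), with 111 of 12187 genes beyond the axis limits of 2.5. Bottom, log2 fold change of each heme gene with its standard error, orange for higher, blue for lower and grey for not past the threshold. Uros at 1.89 lies in the right tail, and the other 8 lie between -0.52 and 0.44.

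Urod and Cpox encode consecutive decarboxylation steps, UROD in the cytosol and CPOX between the mitochondrial membranes. Urod (chromosome 4, 116989965 to 116994413, minus strand) was at 75.9, 85.3 and 89.0 FPKM in WT and 63.7, 65.7 and 61.8 FPKM in BACH1-KO. Cpox (chromosome 16, 58670292 to 58717636, plus strand) was at 26.5, 25.0 and 24.8 FPKM in WT and 19.6, 20.2 and 18.8 FPKM in BACH1-KO. For both genes every BACH1-KO library was below every WT library. Urod fell by 23.6% (log2 fold change -0.38, SE 0.06, limma adjusted p = 4.48e-04) and Cpox by 23.0% (log2 fold change -0.36, SE 0.04, limma adjusted p = 1.26e-04). The ratio of Cpox to Urod within a library was 0.349, 0.293 and 0.278 in WT and 0.307, 0.308 and 0.305 in BACH1-KO. The BACH1-KO ratios lay inside the WT range.

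Ppox encodes the oxidase that makes protoporphyrin IX (chromosome 1, 171275990 to 171281186, minus strand). It was at 3.98, 4.21 and 5.02 FPKM in WT and 5.13, 5.84 and 6.01 FPKM in BACH1-KO. The groups were separated narrowly, the lowest BACH1-KO library being 1.02 times the highest WT library. Ppox rose 1.28-fold (log2 fold change 0.30, SE 0.09, limma adjusted p = 0.0144), the weakest of the 6 calls. It was not past the threshold under quantile normalization (adjusted p = 0.0687) or without the third BACH1-KO column (adjusted p = 0.0540), with 0.00412 to 1.00 over all its alternatives. Ppox overlaps B4galt3, a galactosyltransferase gene, by 907 bases on the opposite strand, and B4galt3 was at 15.7 ± 0.198 and 17.1 ± 0.821 FPKM (log2 fold change 0.11, limma adjusted p = 0.0538).

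Fech encodes ferrochelatase, the last enzyme, on chromosome 18. It was at 15.0, 16.2 and 16.8 FPKM in WT and 15.2, 14.1 and 15.1 FPKM in BACH1-KO, and the groups overlapped through the first WT column. The log2 fold change was -0.11 (95% interval -0.23 to 0.019, limma adjusted p = 0.105). Without the first WT column it passed the threshold, at -0.15 (adjusted p = 0.0275; 0.0275 to 1.00 over all its alternatives). Fech relative to Alas1 within a library was 0.645, 0.741 and 0.724 in WT and 0.937, 0.918 and 0.993 in BACH1-KO. Transcripts of the last and first enzymes were closer in level in BACH1-KO than in WT.

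**Figure D3:**
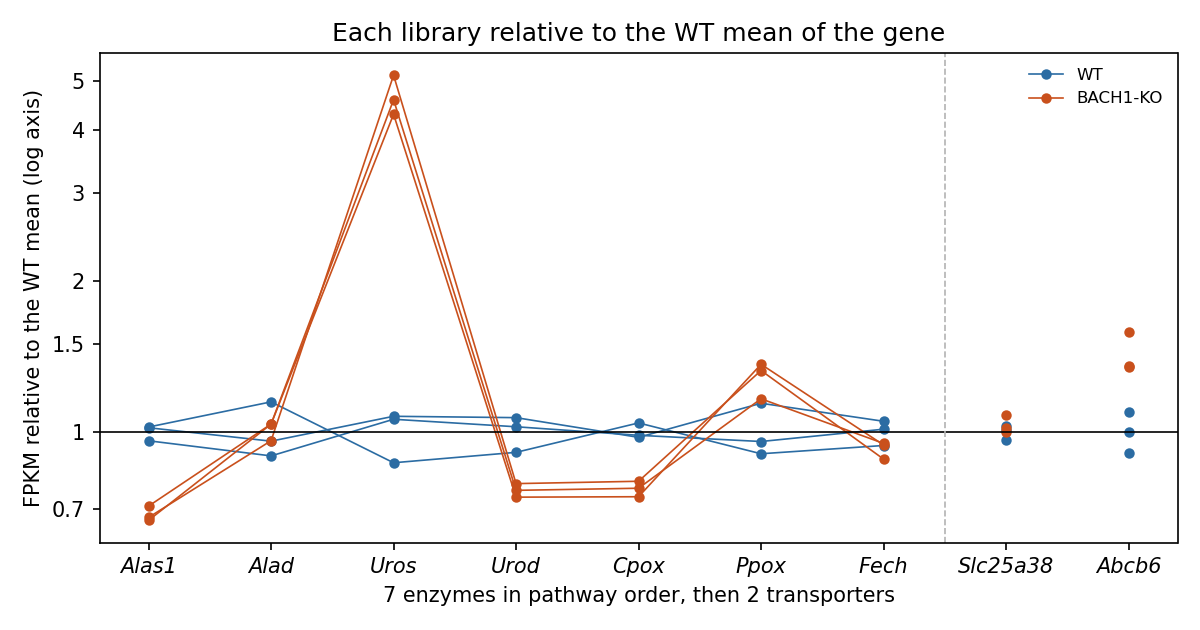
FPKM of each library divided by the WT mean of that gene (log axis), with WT libraries in blue and BACH1-KO libraries in orange. Lines join the 7 enzymes of a library in pathway order, and the 2 transporters stand at the right. The 3 BACH1-KO libraries follow one another closely, between 0.666 and 0.711 for Alas1, between 4.30 and 5.14 for Uros and between 0.740 and 0.788 for Urod.

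Levels of the 9 genes, which FPKM allows to be set side by side because it is per transcript length, spanned 28.7-fold to 31.2-fold within a WT library and 10.3-fold to 12.4-fold within a BACH1-KO library. In WT the order of the means was Urod, Cpox, Alas1, Fech, Slc25a38, Alad, Abcb6, Ppox and Uros. Fech and Slc25a38 overlapped in WT, as did Alad with Abcb6 and Abcb6 with Ppox, while Uros was below the rest in each library. In BACH1-KO the order was Urod, Cpox, Slc25a38, Alas1, Fech, Uros, Abcb6, Alad and Ppox. There Slc25a38 overlapped with Alas1, Alas1 with Fech by a narrow margin, Fech with Uros, and Alad with Ppox. The 9 genes summed to between 174 and 188 FPKM in WT and between 159 and 165 FPKM in BACH1-KO, of which Urod made up 43.6% to 47.2% and 38.9% to 39.8%.

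Among the ratios of successive listed enzymes, that of Urod to Uros changed most. Urod stood 31.2, 28.7 and 29.6 times above Uros in the WT libraries and 4.95, 4.56 and 5.12 times above it in the BACH1-KO libraries. The mean log2 ratio went from 4.90 ± 0.0604 to 2.28 ± 0.0867 (SD, n = 3 per group). Uros relative to Alas1 went from 0.104, 0.136 and 0.129 to 0.794, 0.937 and 0.793. These ratios are within libraries and do not depend on how libraries are scaled to each other. Of 3 against 3 libraries no exact permutation test can give a p under 0.1, so none is reported for them.

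Direction ran along with the WT level among the heme genes. The 3 that rose (Uros, Abcb6 and Ppox) were the lowest in WT, and the 3 that fell (Urod, Cpox and Alas1) were the highest. A ranking by WT level is partly set by the change itself, and by BACH1-KO level the order is less clear: Alad, which did not pass, lay below Uros and Abcb6, and Slc25a38 lay above Alas1. The whole transcriptome had a slope of that kind: of 3361 tested genes with a mean over all libraries of 3 to 10 FPKM, 40.6% were higher and 33.9% lower, and of 2199 genes at 30 to 100 FPKM, 31.3% were higher and 50.3% lower. The band of 3 to 10 FPKM held Alad, Uros, Ppox and Abcb6, the band of 10 to 30 FPKM Alas1, Cpox, Fech and Slc25a38, and the band of 30 to 100 FPKM Urod. The part of level in the direction of the members was not tested. A ratio as large as that of Uros was found in 102 of the 3361 genes in its band (3.03%).

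Sequences before the start sites were read from RefSeq (GRCm38.p6, the assembly mm10 is built on), where 8 of the 9 genes had at least 1 promoter entry, 11 entries in all, and Fech had none. They are shown because members that moved in opposite directions can be compared by the motifs they hold. Within 250 bases before the start, both strands were searched for 5 motifs. They were TGACTCA (AP-1 and small MAF core), TGACNNNGC (antioxidant response element core), CACGTG (E-box), the palindromic NRF1 motif and TGATGNAA (ATF4 and C/EBP). The E-box was in 4 of the 11 entries, from Alad (2 entries), Urod and Uros, and in 6.02% of all 32851 entries. The NRF1 motif was in 1 entry of Alas1 and in 0.782% of all entries, and TGACNNNGC in that of Slc25a38 and in 10.2%. TGACTCA and TGATGNAA, in 4.46% and 3.45% of all entries, were not among these letters for any of the 8 genes. No 2 matches overlapped. The entries of the members held 41.6% to 74.4% G and C, beside a median of 52.4% over all entries, and a match describes letters, not binding. Each match is given in 30 bases with the motif in capitals, read 5′ to 3′ on the strand of the gene.
Alad, chr4:62520151-62520180 (minus): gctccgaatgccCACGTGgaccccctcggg
Alad, chr4:62519920-62519949 (minus): ccgccccgccccCACGTGggcttgcgcttt
Urod, chr4:116994445-116994474 (minus): cactggatcggtCACGTGgttctcaatatg
Uros, chr7:133709516-133709545 (minus): CACGTGtgctttctcacctcgtccacgatt
Alas1, chr9:106247906-106247935 (minus): cgcacccaagGCGCATGCGCggcggtcact
Slc25a38, chr9:120110317-120110346 (plus): cgccggatacGCTATGTCAccggaagcggg

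The 3 genes that carry the E-box had different results: Urod fell, Uros rose and Alad did not pass the threshold. The E-box of Uros lies 250 bases before its upstream RefSeq start site, at the edge of the window and within Bccip. The window of the other Uros entry, further downstream, held none of the 5 motifs. The E-box of Urod lies 49 bases before its start site. RefSeq start sites can differ from the gene spans given above, which are from GENCODE M21. All windows of Uros and of Alas1 lie inside the spans given for these genes. Whole windows are printed for Urod and Cpox, which fell by like amounts, and for Ppox, which rose, with any searched motif in capitals. Those of Cpox and Ppox hold none of the 5 motifs.
Urod, chr4:116994414-116994663 (minus): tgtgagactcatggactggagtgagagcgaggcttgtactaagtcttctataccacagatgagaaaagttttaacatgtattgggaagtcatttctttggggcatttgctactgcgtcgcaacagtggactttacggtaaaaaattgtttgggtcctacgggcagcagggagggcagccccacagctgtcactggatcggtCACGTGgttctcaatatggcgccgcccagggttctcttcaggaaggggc
Cpox, chr16:58669958-58670207 (plus): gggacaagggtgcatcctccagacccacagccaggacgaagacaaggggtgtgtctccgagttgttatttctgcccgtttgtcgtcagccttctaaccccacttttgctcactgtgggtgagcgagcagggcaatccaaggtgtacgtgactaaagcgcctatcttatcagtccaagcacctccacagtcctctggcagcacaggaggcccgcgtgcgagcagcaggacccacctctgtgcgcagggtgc
Ppox, chr1:171281187-171281436 (minus): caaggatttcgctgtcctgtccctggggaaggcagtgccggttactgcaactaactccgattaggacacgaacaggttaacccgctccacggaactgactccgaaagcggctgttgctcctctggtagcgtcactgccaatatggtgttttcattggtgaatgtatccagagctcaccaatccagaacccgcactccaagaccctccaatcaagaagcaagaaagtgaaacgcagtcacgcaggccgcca

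Genes around the pathway were taken from fixed lists and read from the same test over all genes. Of 15 tested genes that supply, induce or restrain ALAS, 9 fell, 4 rose and 2 did not pass, with a median log2 fold change of -0.24. That is 86.7% past the threshold, beside 77.0% of all tested genes (37.3% higher and 39.7% lower), the background for each list that follows. Lonp1, a mitochondrial protease known to degrade ALAS1, fell from 87.0 ± 4.07 to 39.5 ± 0.509 FPKM. Dlst, a subunit of the enzyme complex that makes succinyl-CoA, rose from 30.1 ± 0.760 to 60.0 ± 3.01 FPKM. Shmt2, which makes mitochondrial glycine, rose from 101 ± 2.43 to 161 ± 1.51 FPKM, and Pgrmc1, a heme-binding protein that associates with ferrochelatase, from 51.6 ± 2.24 to 102 ± 1.65 FPKM. Their limma adjusted p ranged from 1.43e-07 for Lonp1 to 4.61e-07 for Dlst.

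Of 11 mitochondrial carriers and transporters, 6 fell, 4 rose and 1 did not pass, with a median log2 fold change of -0.11. The share past the threshold was 90.9%, beside 77.0% of all tested genes. Slc25a40, a carrier of the mitochondrial glutathione family, rose from 7.99 ± 0.909 to 26.8 ± 1.19 FPKM (log2 fold change 1.63, limma adjusted p = 4.69e-07). Slc25a37, mitoferrin 1, which imports iron for ferrochelatase, fell from 8.17 ± 0.291 to 6.05 ± 0.339 FPKM (limma adjusted p = 4.65e-04). Tmem14c, which helps move protoporphyrinogen IX into the matrix, fell from 116 ± 3.66 to 93.3 ± 3.84 FPKM (limma adjusted p = 1.74e-04).

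Iron-sulfur cluster assembly draws on the same mitochondrial iron, and FECH itself holds such a cluster. Of 14 tested genes of that list 8 rose, 3 fell and 3 did not pass, with a median log2 fold change of 0.34. The share past the threshold, 78.6%, was near the 77.0% of all tested genes. Isca2, an assembly factor, rose from 15.7 ± 0.821 to 51.2 ± 2.97 FPKM, and Iscu, the scaffold, from 51.4 ± 0.386 to 97.9 ± 5.45 FPKM. Nfs1, the cysteine desulfurase that gives the sulfur, fell from 39.7 ± 1.67 to 22.5 ± 0.765 FPKM, and Fdxr, ferredoxin reductase, from 26.1 ± 0.502 to 8.30 ± 0.405 FPKM. The limma adjusted p of these 4 lay between 8.00e-08 for Fdxr and 1.30e-06 for Nfs1. Members of the core complex, Nfs1 and Iscu, thus moved in opposite directions.

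After synthesis, heme a and heme c are fitted by a few enzymes, of which Cox15 fell from 11.0 ± 0.330 to 7.52 ± 0.426 FPKM (limma adjusted p = 7.51e-05) and 2 of 3 did not pass. Of 10 tested genes for heme breakdown, export and transport, 4 fell, 1 rose and 5 did not pass, so 5 of 10 were past the threshold, beside 77.0% of all tested genes. Hmox2, the constitutive heme oxygenase, fell from 67.2 ± 4.51 to 45.7 ± 2.42 FPKM, and Slc48a1, which returns heme from lysosomes, from 16.8 ± 0.924 to 10.2 ± 0.259 FPKM. Hmox1, the inducible oxygenase, had the lowest log2 fold change of these lists, -1.78 (limma adjusted p = 2.34e-07). Blvra, which reduces biliverdin, was second in this list at -1.19 (limma adjusted p = 2.83e-07).

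**Figure D4:**
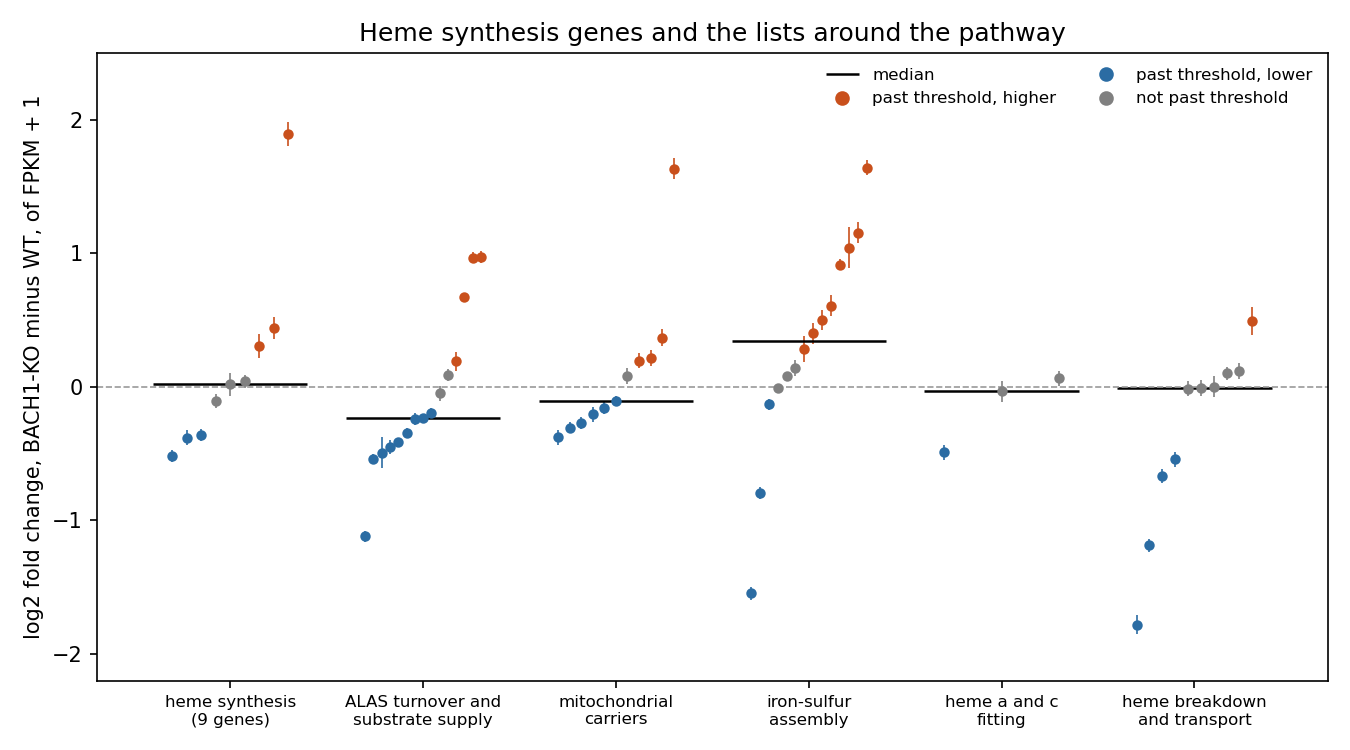
Log2 fold change (BACH1-KO minus WT, FPKM + 1) with standard error for each tested gene of the heme synthesis set and of 5 lists around it, coloured by call, with a black line at each median. The medians run from -0.24 for ALAS turnover and substrate supply to 0.34 for iron-sulfur assembly, and each list but heme a and c fitting holds genes called in both directions.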

How the data were processed

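RNA sequencing values of 3 WT and 3 BACH1-KO libraries were used. The deposited values are FPKM per gene symbol and library; Cufflinks and mm10 are named in the submitters' processing notes. The sources used here give no aligner, annotation, strand setting or version, and FPKM leaves absolute depth unknown. The columns name the genotype but not the sample, so each was a replicate of its group without pairing. Rows named by a number and not a symbol (23 rows, 0.0987% of all FPKM) were not used.

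The test was limma 3.58.1 on log2(FPKM + 1) (R 4.3.3; eBayes after lmFit, prior variance trended on the mean, two-sided, Benjamini-Hochberg) for the 12187 genes averaging 1 FPKM or more; all 9 members passed this filter, in either genotype alone too. The script was tested on simulated data with the same relative spread for every gene and increases only, which checks the code and not these data. The members and lists were chosen with earlier results of these data known. Named beyond Bach1 and the members are overlapping or adjacent genes, and up to 4 genes per list past the threshold with the smallest adjusted p. Markers and Alas2 are given as values. Gene positions and neighbours are from GENCODE M21 (GRCm38). Flvcr1, Flvcr2 and 1 further enzyme of the pathway are not analysed here, and 1 carrier gene that met the naming rule is not reported here. Alternatives were filters, pseudocounts, scalings, a constant prior variance, a test against a 1.5-fold change and leaving out each library.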

Additional observations from a re-analysis of the deposited data

How the results depend on the processing

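No paired analysis was made because the labels pair no WT library with a BACH1-KO library, and the numbered columns cannot be tied to samples. Each result had 14 alternatives. Tested against a fold change of 1.5, 1325 genes were higher and 994 lower; of the members 1 was higher (Uros) and 0 lower by limma's treat (0 also at an unadjusted p under 0.05), and Bach1 at 0.30 was not called (adjusted p = 1.00), though it was under its other 13 alternatives. Among the fewer genes averaging 5 FPKM or more, 2942 were higher. Without 1 library at a time, 4129 to 4637 genes were higher and 4567 to 4767 lower. Alad, never called, changed sign under quantile normalization (-0.083) and ranged from -0.047 to 0.11 without 1 library. Uros was called under every alternative, between 1.81 and 2.19. Alas1, Urod, Cpox and Abcb6 lost their call under the test against 1.5-fold alone. Of 17 other pathway genes, 7 lost their call under that test and kept it, with their direction, under the other alternatives. Scaling moved the median of all genes from -0.012 to between -0.039 and 0.010, and the share of called genes that were higher from 48.4% to between 46.0% and 50.5%. The unknown depth limits what can be said of counting error, most for Uros in WT, Ppox and Abcb6.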

Other observations

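There were 21 genes that overlap a heme gene or are the nearest gene with a row on either side, at any distance. Of these 14 were tested, and 4 rose, 5 fell and 5 did not pass, beside 77.0% of all tested genes past the threshold. Atg9a, an autophagy gene 468 bases from Abcb6 on the same strand, fell from 8.04 ± 0.477 to 4.59 ± 0.519 FPKM (limma adjusted p = 8.84e-05), while Abcb6 rose. Usp21, a deubiquitinase gene 759 bases from Ppox, fell from 15.0 ± 0.902 to 7.73 ± 0.853 FPKM (limma adjusted p = 1.67e-05), while Ppox rose. Hectd3 and Zswim5, which flank Urod at 904 and 701 bases, rose (log2 fold changes 0.20 and 0.45, limma adjusted p = 0.00968 and 4.41e-04), while Urod fell. Nars, an asparaginyl-tRNA synthetase gene beside Fech, rose from 137 ± 2.70 to 286 ± 2.10 FPKM (limma adjusted p = 3.79e-08), and Fech did not pass the threshold. Poc1a, a centriole gene 32407 bases from Alas1, fell as Alas1 did (log2 fold change -0.39, limma adjusted p = 9.80e-05). Crybg3, the next tested gene after Cpox but 773139 bases away, fell as Cpox did (log2 fold change -0.41, limma adjusted p = 0.00213). Dhx32 beside Uros and Zfand2b beside Abcb6 did not pass (log2 fold changes 0.081 and 0.038).

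The median log2 fold change of the tested genes of each chromosome that carries a member lay between -0.12 (chromosome 9, with Alas1 and Slc25a38) and 0.023 (chromosome 7, with Uros). Alas1 at -0.52 was below the median of its chromosome and Slc25a38 at 0.042 above it. For chromosome 16, which carries Cpox and Bach1, the median was -0.086.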
